A study of Mus musculus with 6 samples.

Results

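The proteasome genes of mouse epididymal fat were taken as the protein-coding genes whose symbol begins Psm, then a letter from a to g and a number. The rule found 50 of 45777 genes in the deposited table, and 3 further symbol matches that are pseudogenes were left out. Of the 50, 49 had enough counts to be tested, and the remaining gene, Psmb11, had a count of 0 in all 6 libraries. The rule takes in 1 gene that encodes no proteasome subunit, Psmc3ip, a meiotic recombination factor named for its binding to a subunit.

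There were 3 libraries labelled KO, described as Adipoq-Cre; Pak4 flox/flox, and 3 labelled WT, described as Pak4 flox/flox without Cre. Both groups carry the floxed Pak4 alleles on a C57BL/6 background, and all mice were fasted for 24 h. Adipoq-Cre places the recombinase under the promoter of the adiponectin gene, so it acts in adipocytes, while the RNA came from whole fat pads, although the labels name adipocytes, and their vessels, fibroblasts and immune cells keep Pak4. The sources used here give no age. They also do not state that replicates came from different mice, and each p-value then reflects only how far these libraries scatter, which may be technical.

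The proteasome is the protease that degrades ubiquitin-tagged proteins in the cytosol and nucleus. Its core particle (20S) is a barrel of stacked alpha and beta rings with the active sites inside. The cap (19S) binds ubiquitin chains, and its ring of ATPases unfolds the substrate and threads it into the barrel. Interferon and immune cells bring in alternative catalytic subunits that form the immunoproteasome, which favours peptides suited to MHC class I. In fat as in other tissues, the transcription factor NRF1, encoded by Nfe2l1, raises proteasome genes when proteasome activity falls short.

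Pak4, the targeted kinase gene, had more reads in the libraries labelled KO, with 815, 744 and 675 counts against 339, 337 and 358 in the libraries labelled WT (log2 fold change 0.96 ± 0.14, SE; adjusted p 0.0898, edgeR's quasi-likelihood test). The gene total of Pak4 thus goes against the labels, but it does not separate reads of the floxed exons. The cause was not tested, and each direction here is between libraries as labelled. Total counts were 62854465 to 72005658 per library, and KO 1 lay between the other libraries labelled KO and those labelled WT on the main axis of variation (44.1% of the variance). Adipocyte markers were abundant, with 14 of 14 tested. They summed to 100190 to 107110 TPM in the libraries labelled KO and 89658 to 103620 TPM in those labelled WT. Cfd alone had 27197 to 37510 TPM in the libraries labelled KO and 8822 to 22643 TPM in those labelled WT. The median log2 fold change of the 14 was -0.16, against 0.02 over all genes tested. At an unadjusted p under 0.05 in edgeR, 2 were higher and 2 lower (9.66% and 9.71% over all genes). Epididymal and sperm markers, of which 0 of 6 passed the filter on low counts and Defb42 and Lcn5 were at 0, summed to at most 1.89 TPM in the libraries labelled KO and 2.50 TPM in those labelled WT.

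Proteasome transcripts were abundant, and no proteasome gene passed the test between the labels. The 50 genes together made up 5300, 5121 and 4986 TPM (the deposited length-corrected transcript abundances) in KO 1, 2 and 3, against 5107, 4849 and 5143 TPM in WT 1, 2 and 3, and the groups overlapped. None of the 49 tested genes passed edgeR's quasi-likelihood test at an adjusted p of 0.05, against 0.0168% of all 17820 genes tested, and their adjusted p ran from 0.147 to 0.997. At an unadjusted p under 0.05 there were 3 proteasome genes with higher values in the libraries labelled KO (Psmb8, Psmb9 and Psmd5) and 1 with lower values (Psme4). Over all genes tested, 9.66% were higher and 9.71% lower by that rule, so the share of proteasome genes did not exceed the background. The log2 fold changes of the 49 had a median of -0.02, against 0.02 over all genes tested, and ran from -0.40 (Psme4) to 0.48 (Psmb9).

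Levels differed between the parts of the complex. Psmb3, a structural subunit of the beta ring, was the most abundant at a mean of 253.8 TPM over the 6 libraries, followed by Psmb6 at 234.5 TPM and Psma7 at 231.8 TPM. The ranges of these 3 genes over the libraries overlapped, so their order is not firm. Among the 7 alpha ring genes Psma1 to Psma7 the highest mean was 2.77 times the lowest, and among the 7 beta ring genes Psmb1 to Psmb7 it was 1.62 times. In the cap the ratio was 2.54 among the 6 ATPases and 3.95 among the 11 non-ATPase subunits, from Psmd11 at 50.5 TPM to Psmd4, a ubiquitin receptor, at 199.3 TPM. Assembly chaperones were lower, from 15.4 TPM for Psmd9 to 37.9 TPM for Psmg1.

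**Figure D1:**
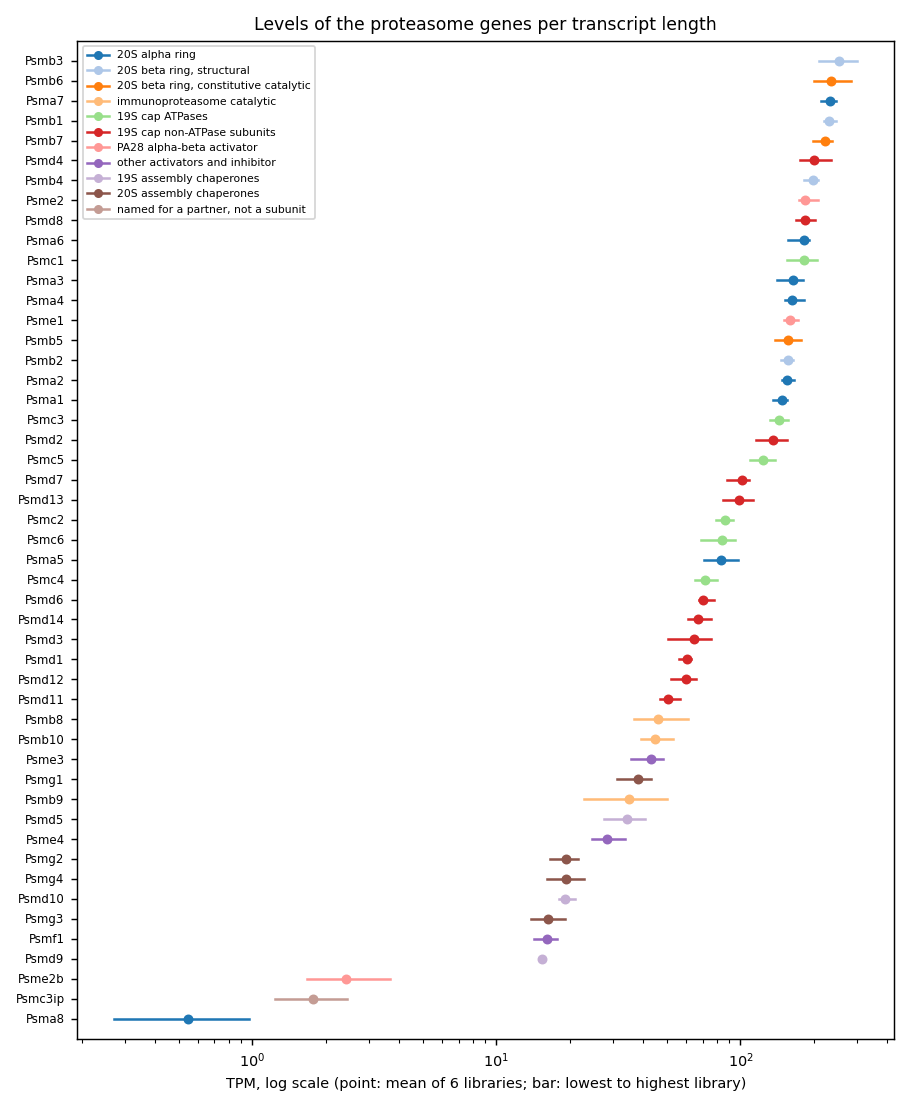
Level of each tested proteasome gene in TPM on a log scale, with the mean of all 6 libraries as a point and the lowest to highest library as a bar, coloured by role. The highest levels are those of core genes, with Psmb3 at 253.8 TPM. Cap and activator genes such as Psmd4 (199.3 TPM) and Psme2 (183.9 TPM) lie among the other core genes. The immunoproteasome genes Psmb8, Psmb9 and Psmb10 lie between 34.9 and 46.0 TPM, and the core gene Psma8 is lowest at 0.54 TPM.

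Core and cap genes stood within a narrow band around equal levels. The 15 core genes had a median log2 fold change of 0.02, with 9 above 0 and 6 below. The 17 cap genes had a median of -0.09, with 5 above 0 and 12 below. Over all genes tested the median was 0.02, with 9287 above 0 and 8533 below. For all 32 core and cap genes the 95% interval of the fold change included 0. For 30 of them it lay wholly within 0.5 on the log2 scale of equal levels. The 2 exceptions were Psma8, with an interval of -0.67 to 1.56, and Psmd3, with one of -0.54 to 0.15. Such intervals bound the difference and do not show that levels were equal. The median SE of the 32 was 0.088, against 0.163 over all genes tested. It was 0.109 over the 6836 tested genes with a mean level above 20 CPM on the log2 scale, so much of the narrowness is shared by abundant genes. With scaling by library size alone the median of all genes moved up by 0.12, the core median was 0.13, the cap median turned to 0.027 and 37 of the 49 genes stood above 0, against 23 with TMM.

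Alpha ring genes lay just above 0, with 7 of 8 positive, against 9287 of all 17820 genes tested. Psma5 had the smallest p among them, with 55.7, 60.4 and 55.9 CPM (counts per 1000000, scaled by TMM) in KO 1, 2 and 3 against 54.1, 49.0 and 50.6 CPM in WT 1, 2 and 3. Every library labelled KO was above every library labelled WT, by a log2 fold change of 0.16 ± 0.08 (SE) with an adjusted p of 0.311 in edgeR. Psma8, an alternative alpha subunit of the testis, had 30, 59 and 38 counts in the libraries labelled KO and 17, 50 and 18 counts in those labelled WT. Those groups overlapped, and its log2 fold change of 0.44 ± 0.48 is the least certain in the core. The other 6 alpha genes stood between -0.02 for Psma6 and 0.08 for Psma4, both as log2 fold changes, with SE of at most 0.09. Psma1 and Psma3 turned just below 0 without KO 3 (-0.006 and -0.004), and Psma6 turned to 0.03 without WT 1.

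The structural beta genes Psmb1 to Psmb4 stood between -0.10 and 0.08. Psmb2 had 65.5, 67.6 and 67.7 CPM in KO 1, 2 and 3 against 70.3, 75.7 and 69.0 CPM in WT 1, 2 and 3, lower in every library labelled KO (log2 fold change -0.10 ± 0.08, adjusted p 0.511 in edgeR). Psmb3 had 116.9, 81.8 and 107.9 CPM in KO 1, 2 and 3 against 104.2, 105.4 and 80.6 CPM in WT 1, 2 and 3. KO 2 and WT 3 were its lowest libraries, and they were also the lowest for Psmb6, named here with Psmb3 after the values were seen. Within groups Psmb6 had a coefficient of variation of 17.6% and Psmb3 one of 16.3%, against a median of 5.24% over 31 core and cap genes without Psma8, of which 25 were under 10%.

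**Figure D2:**
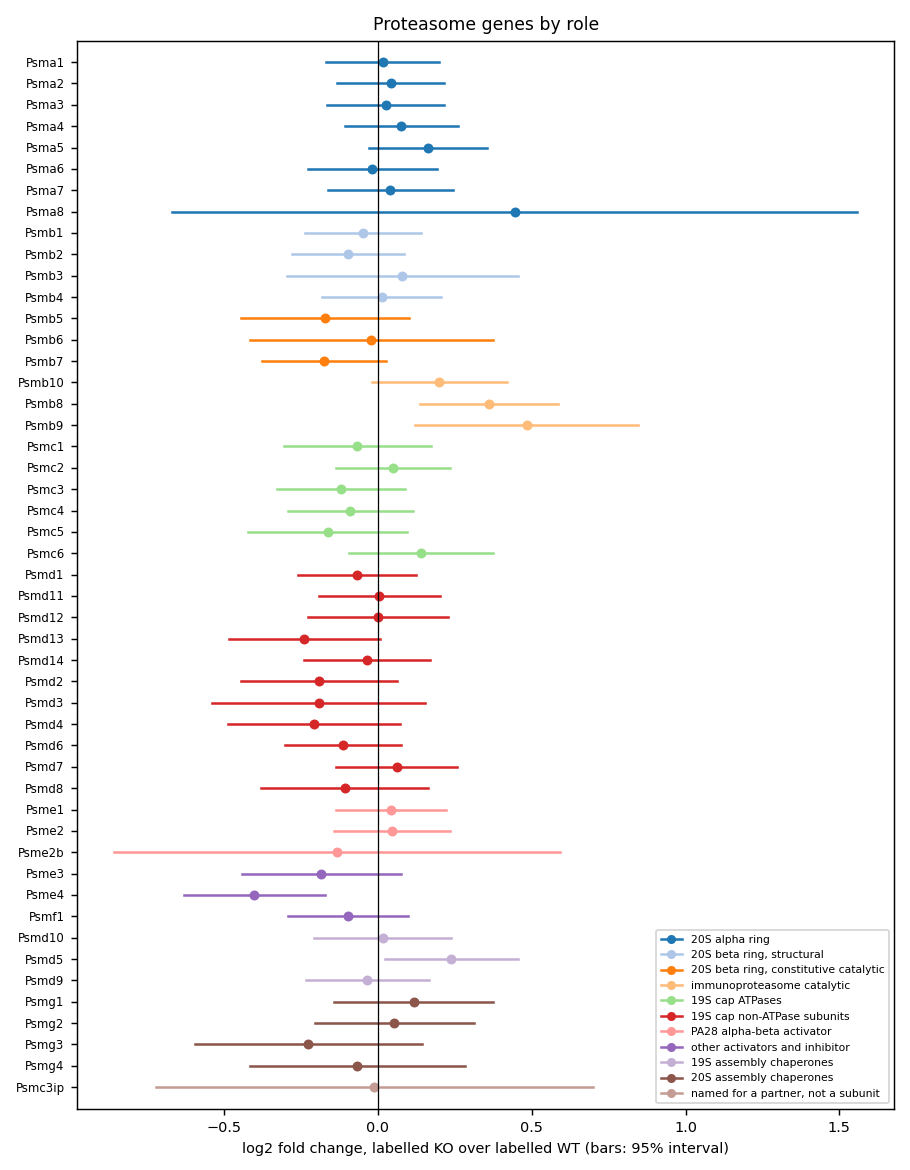
Log2 fold change of each tested proteasome gene, libraries labelled KO over libraries labelled WT, with its 95% interval, coloured by role. Core and cap genes cluster around 0, Psmb8 (0.36) and Psmb9 (0.48) lie to the right and Psme4 (-0.40) to the left.

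The catalytic genes come in pairs that occupy the same places of the beta ring. Psmb5 encodes the constitutive chymotrypsin-like subunit and Psmb8 replaces it in the immunoproteasome. Psmb6, the caspase-like subunit, is replaced by Psmb9, and Psmb7, the trypsin-like subunit, by Psmb10. Psmb8 and Psmb9 lie in the MHC region of chromosome 17 (positions of RefSeq on GRCm38.p6), Psmb8 at 34198195 to 34201454 and Psmb9 at 34182030 to 34187330, beside the peptide transporter genes Tap2 and Tap1. Psmb9 and Tap1 run in opposite directions, and their 5′ ends overlap by 212 bases in the GENCODE annotation. The sources used here do not say whether counting used strand, so reads from that overlap may belong to either gene. The same holds for Psmb8, Psmb10 and Psmb7, each of which overlaps an antisense or opposite-strand gene. Outside the catalytic genes it also holds for other members, among them Psma5, Psmd13, Psme4 and Psmd5. Psmg3 overlaps Gm26938 on its own strand by 2816 bases.

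The 100 bases before the start were searched for 4 motifs in the catalytic genes that the RefSeq table holds, and the 30 bases around each match are shown because the pairs carry the contrast between the immunoproteasome and the constitutive core. Sequences are from RefSeq on GRCm38.p6 and run 5′ to 3′ on the strand of the gene, at chr17:34198088-34198117 (+ strand) for Psmb8, chr14:54618023-54618052 (- strand) for Psmb5, chr17:34187331-34187360 (- strand) for Psmb9 and chr11:70525327-70525356 (+ strand) for Psmb6. Capitals mark the match, TTCNNNGAA (gamma-activated site) in Psmb8, TGACNNNGC (antioxidant response element) in Psmb5 and Psmb6, and CCAAT, on the opposite strand, in Psmb9. The windows of Psmb8 and Psmb9 lie in the 5′ UTR of longer GENCODE transcripts of these genes, and that of Psmb6 lies inside the RefSeq span of the gene, which begins at 70525324.
Psmb8: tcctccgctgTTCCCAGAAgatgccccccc
Psmb5: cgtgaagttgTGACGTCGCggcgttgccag
Psmb9: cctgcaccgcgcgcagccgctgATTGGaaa
Psmb6: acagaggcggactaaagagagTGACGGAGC

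Of the 50 genes, 42 had a promoter in the RefSeq table, with 45 promoters in all. Over 250 bases before the start and on both strands, TGACNNNGC was found in 11.1% of these 45 promoters and in 10.2% of all 32851 promoters. CCAAT was found in 33.3% of the proteasome promoters and 33.8% of all, TTCNNNGAA in 4.44% and 7.02%, and the interferon-stimulated response element, written as GAAA, any 2 bases and GAAA, in 6.67% and 2.98%, which for the proteasome genes is 3 promoters (Psmd9, Psmd4 and Psmb3). A match is a run of letters and not evidence of binding, and no window printed holds a second match.

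For the 3 immunoproteasome catalytic genes the lowest library labelled KO stood above the highest one labelled WT, though none of the 3 passed the test. Psmb8 had 31.1, 37.7 and 32.4 CPM in KO 1, 2 and 3, against 27.1, 25.5 and 26.1 CPM in WT 1, 2 and 3. The means were 33.7 ± 3.49 CPM in the libraries labelled KO and 26.3 ± 0.81 CPM in those labelled WT (SD, n = 3 each) without overlap, and the log2 fold change was 0.36 ± 0.10 (95% interval 0.14 to 0.59, adjusted p 0.155 in edgeR). Psmb9 had 17.3, 22.3 and 17.8 CPM in KO 1, 2 and 3, against 16.0, 11.4 and 13.7 CPM in WT 1, 2 and 3. Here KO 1 stood only just above WT 1, and the log2 fold change was 0.48 ± 0.16 (95% interval 0.12 to 0.85, adjusted p 0.186 in edgeR). Psmb10 had 29.5, 31.9 and 36.0 CPM in KO 1, 2 and 3, against 28.4, 28.2 and 28.3 CPM in WT 1, 2 and 3, a log2 fold change of 0.20 ± 0.09 (95% interval -0.02 to 0.42, adjusted p 0.285 in edgeR), which was 0.12 without KO 3. Over all genes tested, 13.7% were higher in every library labelled KO and 12.5% were lower in every one, and among the 49 proteasome genes 5 and 6 were, so neither count exceeded the background.

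The constitutive partners had log2 fold changes below 0, and the direction of Psmb6 was not firm. It turned to 0.10 with scaling by library size alone, 0.10 without KO 2, 0.02 without WT 1 and 0.07 without WT 2. Psmb5 had 76.1, 61.2 and 69.8 CPM in KO 1, 2 and 3, against 72.0, 87.6 and 73.7 CPM in WT 1, 2 and 3, with overlapping groups (log2 fold change -0.17 ± 0.12, adjusted p 0.441 in edgeR). Its value was -0.09 without KO 2 and -0.07 without WT 2. Psmb6 had 156.0, 105.8 and 126.4 CPM in KO 1, 2 and 3, against 138.3, 147.2 and 108.4 CPM in WT 1, 2 and 3, again with overlap (-0.02 ± 0.17, adjusted p 0.958 in edgeR). Psmb7 had 110.6, 108.6 and 101.2 CPM in KO 1, 2 and 3, against 116.1, 127.6 and 117.8 CPM in WT 1, 2 and 3, lower in every library labelled KO (-0.17 ± 0.09, adjusted p 0.306 in edgeR). None of the 3 passed, and all 3 intervals included 0.

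**Figure D3:**
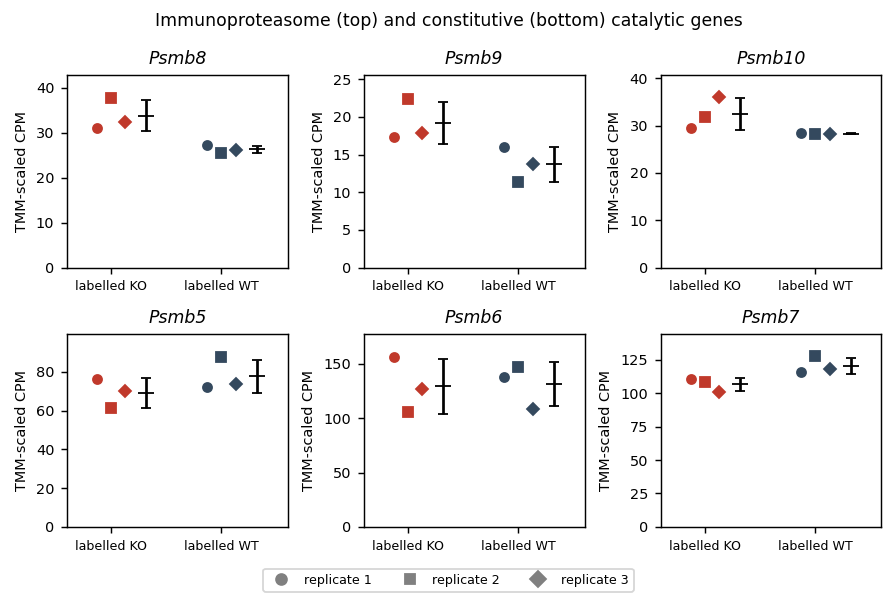
TMM-scaled CPM of the immunoproteasome genes Psmb8, Psmb9 and Psmb10 (top) and the constitutive genes Psmb5, Psmb6 and Psmb7 (bottom) in each library, with group means and SD (n = 3) beside the points. The top row has every library labelled KO above every library labelled WT, while for Psmb5 and Psmb6 the groups overlap.

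Set against its constitutive partner, each immunoproteasome gene stood higher in the libraries labelled KO on average. Psmb8 stood at 29.1%, 43.9% and 33.1% of the TPM of Psmb5 in KO 1, 2 and 3, and at 26.9%, 20.8% and 25.2% in WT 1, 2 and 3. The log2 ratio averaged -1.52 ± 0.30 in the libraries labelled KO and -2.05 ± 0.19 in those labelled WT (SD, n = 3 each), a difference of 0.53. Psmb10 stood at 20.1%, 22.0% and 26.8% of Psmb7 in KO 1, 2 and 3, and at 18.3%, 16.5% and 18.03% in WT 1, 2 and 3, a difference of 0.37 in the log2 ratio. Neither pair overlapped between the labels. Psmb9 stood at 13%, 24.9% and 15.8% of Psmb6 in KO 1, 2 and 3, and at 13.6%, 9.14% and 15.1% in WT 1, 2 and 3, so KO 1 lay below WT 1 and WT 3. The difference in that log2 ratio was 0.48, and it was 0.22 without KO 2 and 0.27 without WT 2. Together the 3 immunoproteasome genes held 16.2%, 22.1% and 19.4% of the TPM of the 6 catalytic genes in KO 1, 2 and 3, against 15.6%, 12.95% and 16.0% in WT 1, 2 and 3. These ratios were given no test, since the genes were chosen with results known, and KO 2 had the highest share and WT 2 the lowest.

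**Figure D4:**
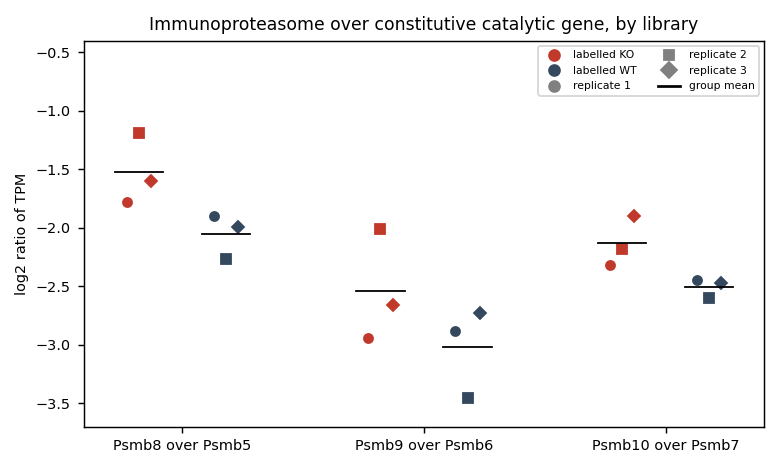
Log2 ratio of TPM of each immunoproteasome gene over its constitutive partner in each library, with group means as lines. The ratio of Psmb8 over Psmb5 averages -1.52 in the libraries labelled KO and -2.05 in those labelled WT, and the groups overlap for Psmb9 over Psmb6.

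Genes that act with the immunoproteasome stood on both sides of 0, with 9 of 20 above. Irf1, the interferon regulatory factor that drives these catalytic genes, had 31.7, 48.3 and 43.2 CPM in KO 1, 2 and 3, against 20.3, 24.6 and 23.5 CPM in WT 1, 2 and 3. Its groups did not overlap, and it missed the threshold (log2 fold change 0.85 ± 0.16, adjusted p 0.119 in edgeR). Tapbp, which loads peptides on MHC class I, was lower in every library labelled KO, with 244.0, 216.5 and 198.6 CPM against 260.4, 346.4 and 262.7 CPM in the libraries labelled WT (-0.40 ± 0.15, adjusted p 0.209 in edgeR). Of 20 tested genes of interferon control and MHC class I loading, 0 passed, and these were the genes at an unadjusted p under 0.05, 1 in each direction (9.66% higher and 9.71% lower over all genes), with a median log2 fold change of -0.02. Tap1, the neighbour of Psmb9, had a log2 fold change of 0.14 ± 0.13, and Tap2, the neighbour of Psmb8, one of 0.20 ± 0.09.

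Immune cells are rich in immunoproteasomes, and in whole fat pads a larger number of such cells and more RNA per cell cannot be told apart. Macrophage and monocyte markers summed to 3164 to 4201 TPM in the libraries labelled KO and 2939 to 3463 TPM in those labelled WT. Of 15 tested, 6 had higher values at an unadjusted p under 0.05 and 0 had lower ones, against 9.66% and 9.71% over all genes, which are also the shares for the marker counts that follow. The median log2 fold change was 0.26, against 0.02 over all genes. B and plasma cell markers summed to 234.9 to 263.4 TPM in the libraries labelled KO and 166.0 to 238.3 TPM in those labelled WT. Most of that sum was Xbp1, with 200.6 to 221.8 TPM and 154.0 to 207.4 TPM and a log2 fold change of 0.12. Of the 9 tested, 2 were higher and 0 lower at an unadjusted p under 0.05. All 9 were above 0, against 9287 of 17820 genes tested. T and NK cell markers summed to 15.2 to 30.1 TPM in the libraries labelled KO and 17.2 to 24.0 TPM in those labelled WT, while dendritic cell markers summed to 271.1 to 414.9 TPM in the libraries labelled KO and 365.3 to 477.3 TPM in those labelled WT. Their median log2 fold changes were -0.09 over 14 tested T and NK cell markers and -0.12 over 8 dendritic cell markers. At an unadjusted p under 0.05, 1 T and NK cell marker was higher and 2 were lower. Among the dendritic cell markers, 1 was higher and 0 lower by that rule. Most of the dendritic cell sum was H2-Ab1, with 241.7 to 383.3 TPM in the libraries labelled KO and 335.9 to 445.2 TPM in those labelled WT. Endothelial markers, of which 6 of 8 were lower and 0 higher at an unadjusted p under 0.05, summed to 119.3 to 127.8 TPM in the libraries labelled KO and 142.6 to 187.8 TPM in those labelled WT. Progenitor and fibroblast markers summed to 2772 to 4211 TPM in the libraries labelled KO and 2488 to 2835 TPM in those labelled WT, with 3 of 8 higher and 0 lower by that rule. Mesothelial markers, with 2 of 6 higher and 0 lower, summed to 592.7 to 718.7 TPM in the libraries labelled KO and 360.4 to 607.7 TPM in those labelled WT. The part of these cell types in the values of Psmb8, Psmb9 and Psmb10 was not tested.

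Psmb11, the catalytic subunit of thymic cortical epithelium, was listed at 0 in every library. For counting error only, that allows at most 3 counts, or 0.0477 CPM by total count without TMM in the shallowest library, WT 3.

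In each class of cap genes, the ATPases and the non-ATPase subunits, the gene with the smallest p was on the lower side. Among the ATPases, Psmc5 had 90.8, 73.7 and 74.6 CPM in KO 1, 2 and 3, against 93.1, 81.9 and 92.8 CPM in WT 1, 2 and 3. KO 1 lay within the range of the libraries labelled WT, and the log2 fold change was -0.16 ± 0.11 (adjusted p 0.440 in edgeR), or -0.27 without KO 1. Psmc6 stood highest of the 6 at 0.14 ± 0.10. Among the non-ATPase subunits, Psmd13, a scaffold subunit of the lid, had 82.8, 74.0 and 71.0 CPM in KO 1, 2 and 3, against 85.2, 99.96 and 83.8 CPM in WT 1, 2 and 3. All libraries labelled KO lay below those labelled WT, by -0.24 ± 0.11 (95% interval -0.49 to 0.01, adjusted p 0.264 in edgeR), or -0.15 without WT 2.

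Of the 11 non-ATPase genes, 8 were below 0, against 8533 of all 17820 genes tested. The ubiquitin receptor Psmd4 stood at -0.21 ± 0.12, and the large scaffold Psmd2, which docks ubiquitin shuttles, at -0.19 ± 0.11. The deubiquitinase Psmd14, which strips ubiquitin from the substrate, stood at -0.04 ± 0.09, and Psmd7, its partner, at 0.06 ± 0.08. Summed over the 11 genes the level was 1148, 1059 and 998 TPM in KO 1, 2 and 3, against 1111, 1051 and 1182 TPM in WT 1, 2 and 3, with overlap.

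Among the activators, which dock on the core in place of the cap, Psme4 had lower values in the libraries labelled KO and Psme1 and Psme2 had nearly equal ones. Psme4 encodes PA200, a large nuclear activator, and lies on chromosome 11 at 30771775 to 30881150. It had 86.8, 79.6 and 84.7 CPM in KO 1, 2 and 3, against 102.5, 123.0 and 106.3 CPM in WT 1, 2 and 3. Every library labelled KO was below every library labelled WT, and Psme4 had the smallest p of the 49 genes. The means were 83.7 ± 3.69 CPM in the libraries labelled KO and 110.6 ± 10.9 CPM in those labelled WT (SD, n = 3 each). Its log2 fold change was -0.40 ± 0.10 (95% interval -0.63 to -0.17, adjusted p 0.147 in edgeR). It was the single proteasome gene to pass with DESeq2 (-0.41, adjusted p 0.0182), which called 6.88% of all genes, and its adjusted p over all 12 alternatives ran from 0.0182 to 0.421.

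Psme1 and Psme2 form the interferon-inducible PA28 activator, which works with the immunoproteasome. Psme1 had 84.3, 84.8 and 83.7 CPM in KO 1, 2 and 3, against 83.3, 84.0 and 78.2 CPM in WT 1, 2 and 3 (log2 fold change 0.04 ± 0.08, 95% interval -0.14 to 0.22). Psme2 had 87.6, 94.0 and 86.9 CPM in KO 1, 2 and 3, against 87.6, 88.9 and 83.5 CPM in WT 1, 2 and 3 (0.05 ± 0.08, 95% interval -0.14 to 0.23). Both genes overlapped between the labels, with adjusted p of 0.790 and 0.777 in edgeR. Psme2b, a copy 99.4% identical to Psme2 over 794 bases, had 91, 88 and 103 counts in KO 1, 2 and 3, against 131, 87 and 58 counts in WT 1, 2 and 3, and those counts can hold reads of Psme2.

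Psme3, which encodes the nuclear PA28 gamma, had 66.7, 55.8 and 50.7 CPM in KO 1, 2 and 3, against 65.4, 64.0 and 67.5 CPM in WT 1, 2 and 3. KO 1 lay among the libraries labelled WT and the log2 fold change was -0.18 ± 0.11 (adjusted p 0.384 in edgeR), or -0.30 without KO 1 and -0.10 without KO 3. Psmf1, which encodes the regulator PI31, stood at -0.10 ± 0.08.

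**Figure D5:**
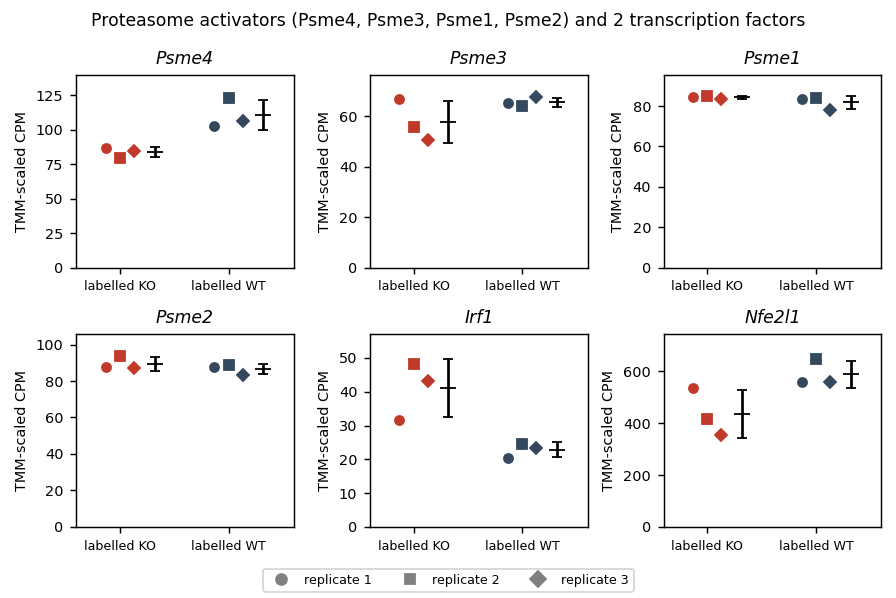
TMM-scaled CPM in each library of the activator genes Psme4, Psme3, Psme1 and Psme2 and of the transcription factor genes Irf1 and Nfe2l1, with group means and SD (n = 3) beside the points. For Psme4 and Nfe2l1 every library labelled KO lies below those labelled WT, for Irf1 above, and for Psme1 and Psme2 the groups overlap.

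Assembly chaperones stood on both sides of 0, with 4 of 7 above. Psmd5, which holds cap ATPases during base assembly, had 36.8, 38.8 and 43.2 CPM in KO 1, 2 and 3, against 34.7, 31.4 and 34.5 CPM in WT 1, 2 and 3. It was higher in every library labelled KO, by a log2 fold change of 0.24 ± 0.09 (95% interval 0.02 to 0.46, adjusted p 0.225 in edgeR). The other cap chaperones Psmd9 and Psmd10 stood at -0.03 ± 0.09 and 0.01 ± 0.10. Psmg1 and Psmg2, which pair to build the alpha ring, stood at 0.12 ± 0.11 and 0.05 ± 0.11. Psmg3, of the second alpha ring chaperone pair, had 8.19, 6.07 and 6.72 CPM in KO 1, 2 and 3, against 9.04, 8.51 and 6.99 CPM in WT 1, 2 and 3 (-0.23 ± 0.16, adjusted p 0.451 in edgeR), and its partner Psmg4 stood at -0.07 ± 0.15. Psmc3ip, the recombination factor, had 0.91, 1.22 and 0.68 CPM in KO 1, 2 and 3, against 0.96, 0.73 and 1.14 CPM in WT 1, 2 and 3, with overlap.

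Genes around the proteasome that the symbol rule does not take in were read from lists chosen with results of these data known. None of their tested members passed edgeR's test over all genes. Their counts at an unadjusted p under 0.05 stand against 9.66% higher and 9.71% lower over all genes, and their medians against 0.02. Of 11 tested subunits and bound factors outside the rule, 2 were lower and 0 higher at an unadjusted p under 0.05, with a median log2 fold change of -0.08. These were Ipo9, an importin that carries proteasomes into the nucleus (-0.27 ± 0.08), and Uchl5, a deubiquitinase of the cap (-0.22 ± 0.09). Pomp, the maturation factor of the core, stood at -0.21 ± 0.09.

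In the list of NRF1 activation, 3 of 12 genes were lower and 0 higher at an unadjusted p under 0.05, with a median log2 fold change of -0.20 (all genes 9.71% lower, 9.66% higher and a median of 0.02). Nfe2l1 had 535.2, 415.1 and 355.5 CPM in KO 1, 2 and 3, against 559.9, 649.3 and 557.8 CPM in WT 1, 2 and 3, lower in every library labelled KO (log2 fold change -0.44 ± 0.17, adjusted p 0.221 in edgeR). Mafk, a small MAF partner of NRF1, had 55.7, 36.9 and 27.97 CPM in KO 1, 2 and 3, against 55.9, 131.5 and 59.3 CPM in WT 1, 2 and 3 (-1.03 ± 0.40), with WT 2 far above the rest. Stt3b, an oligosaccharyltransferase subunit, stood at -0.23 ± 0.09. Nfe2l2, the related factor NRF2, stood at 0.05 ± 0.13.

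Among 12 tested genes of ubiquitin, its activating enzymes and shuttles, 1 was higher and 1 lower at an unadjusted p under 0.05. Rps27a, a fusion of ubiquitin with a ribosomal protein, stood at 0.28 ± 0.12, and Ubqln2, a shuttle to the proteasome, at -0.79 ± 0.27. Of 7 tested ubiquitin ligases of the muscle atrophy programme, Fbxo32 stood at 0.26 ± 0.08 and Fbxo21 at -0.37 ± 0.15, and Trim63 was listed at 0 in all 6 libraries.

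Without the library KO 1, 10 of the 49 genes reached an unadjusted p under 0.05, against 28.4% of all genes, and 0 passed after adjustment, against 5.57% of all genes. The 10 were Psmb8, Psmb9, Psmb10 and Psmd5 on the higher side, and Psmc5, Psmd2, Psmd3, Psmd13, Psme3 and Psme4 on the lower. The smallest adjusted p there was 0.0565 in edgeR, for Psmb8.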

How the data were processed

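Libraries were made from total RNA of whole epididymal fat with a stranded mRNA kit, per the labels' protocols. The submitters' processing notes name HISAT2 2.1.0, Bowtie2 2.3.4.1, StringTie 2.1.3b and the build mm10, with no role or order. Whether strand was used, and how reads matching several places were counted, is not stated there. One table by the authors gives raw read counts, FPKM and TPM for each gene in each library (units per the file headers). All tests used its deposited counts. The deposited TPM were used for levels between genes and ratios, and the deposited FPKM for 1 alternative. Over tested genes with TPM above 0 in every library, the median log2 ratio of TPM was 0.07. The TMM-scaled median over all tested genes was 0.02. For the 49 proteasome genes the 2 medians were 0.04 and -0.02, so TPM comparisons sit somewhat higher than TMM-scaled ones.

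Low genes were removed by filterByExpr at a minimum count of 10 and a minimum total of 15. The rest were scaled by TMM and fitted over the whole table in edgeR 4.0.16 (R 4.3.3) with a robust quasi-likelihood model on the label. Tests were two-sided with Benjamini-Hochberg adjustment over 17820 genes and a threshold of 0.05. Intervals are the fold change ± the t quantile times the SE. The members and gene lists were chosen with earlier results of these data known. Any member could be named and each is counted. By rule, values per library are given for the paired catalytic genes, Psme1, Psme2, the members with the smallest p and the largest fold change in each role group, and the most and least abundant members, and from each pathway list the genes at an unadjusted p under 0.05, up to 4, are named. Psme3, Pomp, Tap1, Tap2 and Nfe2l2 were named beside these after their values were seen. Alternatives were DESeq2 1.42.0, limma 3.58.1 (voom), 2 other scalings, no filter, a replicate block, leaving out each library and, for the ratios, FPKM or counts in place of TPM. Of the members, 10 have copies at 95% identity or more over at least 150 bases elsewhere. One is Psme2b, whose copy Psme2 holds 63.4 times its counts. For the other 9, no copy in the table holds more than 4.21% of the count of its member.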

Additional observations from a re-analysis of the deposited data

How the results depend on the processing

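Over 12 alternatives for each of 49 proteasome genes, 587 of 588 values kept their side of the threshold, and 27 genes kept 1 sign in all 12. The exception was Psme4, which passed with DESeq2. Outside DESeq2 and the fit without KO 1, at most 5 of all genes passed, so keeping that side says little about the members. With 1 library left out, 38 of the 49 log2 fold changes changed by a factor of over 1.5 in at least 1 of the 6 fits. Of the 49, 14 turned sign. Where a log2 fold change lies near 0, a small shift is a large factor. Psma2, at 0.04 with all libraries, ran from 0.019 to 0.063. The count of proteasome genes past the threshold was 0 in edgeR, with 4 at an unadjusted p under 0.05, 0 in limma voom and 1 with DESeq2. The count at an unadjusted p under 0.05 ran from 2 without KO 2 to 10 without KO 1. All genes past the threshold numbered 3 in edgeR, 1048 with DESeq2, 5 with limma voom and 1 with the replicate block, and 1 to 1016 with a library left out, the highest without KO 1. With scaling by library size alone the median log2 fold changes were 0.13 for the core, 0.027 for the cap and 0.48 for the immunoproteasome catalytic genes, and the median of all genes moved by 0.12. With a library left out these medians ran from -0.02 to 0.04, -0.12 to -0.06 and 0.27 to 0.42. With a library left out the log2 ratio difference ran from 0.36 to 0.66 for Psmb8 over Psmb5, from 0.22 to 0.69 for Psmb9 over Psmb6 and from 0.26 to 0.46 for Psmb10 over Psmb7. Pak4 passed with DESeq2 (0.95, adjusted p 1.67e-05) and without KO 1 (0.85, adjusted p 0.0313), and its values without a library ran from 0.85 to 1.06. No pairing of the libraries by replicate number was seen, with correlations of deviations of -0.17, -0.02 and 0.05 for numbers 1, 2 and 3. Pairs of unlike number ran from -0.19 to 0.19, and with 3 libraries per group this cannot exclude a pairing. The replicate block in edgeR left 3 proteasome genes at an unadjusted p under 0.05. With FPKM or counts in place of TPM the ratio differences kept their sign. The cause of these moves was not tested.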
